A study of Mus musculus with 4 samples.

Results

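The genes described here encode the 3 receptor activity-modifying proteins (Ramp1, Ramp2 and Ramp3), the calcitonin receptor-like receptor with which they pair (Calcrl), and the peptides adrenomedullin (Adm) and adrenomedullin 2 (Adm2). Every array probe whose RefSeq accession maps to one of these 6 genes was taken, which gave 8 probes out of 27656 named probes and 6 genes out of 20956. Ramp1 was read by 3 probes and each of the other 5 genes by 1. The genes were chosen because Ramp2 and Ramp3 differed in opposite directions between knockdown and control cells at day 2, so the values of that comparison are descriptions of the choice.

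Calcrl is a seven-transmembrane receptor that depends on a RAMP partner to work at the cell surface. A RAMP is a protein with a single membrane-spanning segment. The RAMP decides which peptide the complex prefers: with RAMP1 it is the receptor for calcitonin gene-related peptide, and with RAMP2 or RAMP3 it is a receptor for adrenomedullin, a peptide best known for its action on blood and lymph vessels. These receptors couple mainly to Gs and raise cyclic AMP, and adrenomedullin is also secreted by fat tissue.

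The cells were 3T3-L1, a mouse fibroblast-like line used as a model of fat cell formation. RNA from 4 cultures was hybridised to 1 single-colour array each: control and lamp2a-knockdown cells, both at confluence (day 0) and at day 2 after a change to growth medium (10% serum) that also held 160 nM insulin, 250 nM dexamethasone and 0.5 mM isobutylmethylxanthine, a phosphodiesterase inhibitor. LAMP2A, the lysosomal receptor of chaperone-mediated autophagy, is 1 splice form of Lamp2, and how it was knocked down and whether 1 clone was used are not given in the sources used here. With 1 array in each of the 4 groups there is no spread between replicates, so no test was run. Both day 2 cultures had received the hormones, and the hormones cannot be told apart from time.

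Signals are given as scaled signal, where 1000 is the 75th percentile of the array, with the scanner's own error for the spot. A scaled signal compares 1 probe between arrays and says nothing of 1 gene against another. A gene is described as higher or lower from a 2-fold difference. Probes printed 10 times gave a median SD of the log2 ratio between spots of 0.35 to 0.47 for signals under 100 and of 0.060 to 0.11 above that, an error within arrays only. The control day 0 array had lower readings for dim probes: 67.4% of its spots were well above background against 78.7% to 88.6% on the others, and the median scaled signal of 1063 olfactory receptor genes was 6.92 there and 21.4 to 23.7 elsewhere. That array was alone on its slide. The lowest scaled signal marked well above background also differed between arrays. It was 17.4 (control) and 8.37 (knockdown) at day 0, and 11.3 and 15.3 at day 2. The knockdown day 0 array thus marked probes at lower signals than the others, so a mark on that array alone is not read as a difference in level. One Lamp2 probe (NM_001017959) was lower with the knockdown, by 4.13-fold at day 0 and 3.51-fold at day 2, and the other (NM_010685) by 1.29-fold and 1.08-fold. All 9 fibroblast and preadipocyte markers were well above background on the 4 arrays.

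Windows of 250 bases before the start are shown for members in the promoter table used here, chosen on the brightest probe of each gene. The choice asked for at least a 2-fold difference in 2 or more of the 4 comparisons that follow. Ramp1 met this only at its other probes and is left out. The genes chosen were Ramp3, Adm and Calcrl, whose windows are shown. They are RefSeq sequences of build GRCm38.p6, printed along the gene's own strand, at chr11:6658283-6658532 (plus strand) for Ramp3, chr7:110627407-110627656 (plus) for Adm and chr2:84425267-84425516 (minus) for Calcrl. Capitals mark matches to the motifs searched on both strands.
Ramp3: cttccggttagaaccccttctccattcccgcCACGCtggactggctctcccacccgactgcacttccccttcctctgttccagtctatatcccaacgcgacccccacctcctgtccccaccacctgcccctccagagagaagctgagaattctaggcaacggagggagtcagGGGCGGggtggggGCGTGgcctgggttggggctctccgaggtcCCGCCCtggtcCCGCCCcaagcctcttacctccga
Adm: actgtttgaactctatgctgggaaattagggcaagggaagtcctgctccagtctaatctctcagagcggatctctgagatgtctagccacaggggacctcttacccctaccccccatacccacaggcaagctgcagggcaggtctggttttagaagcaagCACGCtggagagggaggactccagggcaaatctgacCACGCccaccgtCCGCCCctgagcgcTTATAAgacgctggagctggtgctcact
Calcrl: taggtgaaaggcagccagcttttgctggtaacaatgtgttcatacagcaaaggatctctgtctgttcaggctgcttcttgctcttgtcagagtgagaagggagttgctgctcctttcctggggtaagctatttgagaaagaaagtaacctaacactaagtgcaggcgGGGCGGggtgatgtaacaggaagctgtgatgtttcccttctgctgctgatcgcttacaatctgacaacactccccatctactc
The motifs were TATAA (TATA box), GGGCGG (GC box), TGACG (core of a cyclic AMP response element), ACGTG and GCGTG (cores of hypoxia response elements), TGTTCT (core of a glucocorticoid response element), TTGCNNAA (C/EBP) and CCAAT. The Ramp3 window held 3 GC boxes and 2 GCGTG cores. The Adm window held TATAA, which overlaps its own reverse complement there, 27 to 23 bases before the start, 1 GC box and 2 GCGTG cores. The Calcrl window held 1 GC box, and those of Ramp1 and Adm2 held none of the 8 motifs. Of 32851 mouse windows of this length, 32.7% held a GC box, 28.2% a GCGTG core and 22.8% TATAA. Of the motifs not matched in any member, TGACG was in 17.8%, ACGTG in 16.6%, TGTTCT in 16.1%, TTGCNNAA in 9.56% and CCAAT in 33.8%. Ramp2 is named only.

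Ramp2 and Ramp3, the RAMPs of the adrenomedullin receptors, went opposite ways with the knockdown and the same way with time in control cells. At day 0 the scaled signal of Ramp2 was 331 ± 33.4 in control and 38.4 ± 4.28 in knockdown cells, and at day 2 it was 1663 ± 166 and 16.9 ± 3.82. It was high in both control cultures and low in both knockdown cultures, and in knockdown cells at day 2 it was not well above background. No 2 of these signals overlapped within their errors. At day 0 the knockdown left Ramp2 8.63-fold below control cells (log2 ratio -3.11), the 96th lowest of 19270 compared genes. The knockdown signal at day 0 was dim, with 60.9% of olfactory receptor genes reading below it, which limits the size of this ratio. On day 2 it was at least 98.7-fold lower (log2 ratio -6.62), the second lowest bound or ratio of 18561 genes. With normexp background correction this bound was -4.47 on the log2 scale. From day 0 to day 2 Ramp2 became 5.02-fold higher in control cells and at least 2.28-fold lower in knockdown cells. The second value was a bound of 0 with normexp, under which the knockdown day 2 signal had no order against day 0. Over the other settings the Ramp2 log2 ratio of knockdown to control at day 0 was -3.95 to -2.32. That with time in control cells was 1.46 to 2.38.

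Ramp3 had scaled signals of 422 ± 42.4 in control and 2681 ± 268 in knockdown cells at day 0, and of 3861 ± 386 and 47028 ± 4703 at day 2. Both knockdown cultures read above the control culture of the same day, and both day 2 cultures above day 0. With the knockdown Ramp3 was 6.35-fold higher at day 0 (log2 ratio 2.67, 121st highest of 19270) and 12.2-fold higher at day 2 (log2 ratio 3.61, 11th highest of 18561). It became 9.15-fold higher with time in control cells and 17.5-fold higher in knockdown cells. Its log2 ratio of knockdown to control was larger at day 2 by 0.94, under the size of 1 used here for such differences. In the 4 comparisons the Ramp3 log2 ratios were 2.52 to 2.73, 3.48 to 3.61, 3.05 to 3.25 and 4.01 to 4.17 over the other settings. In these bulk samples, fewer cells with a transcript and less of it per cell cannot be told apart.

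**Figure D1:**
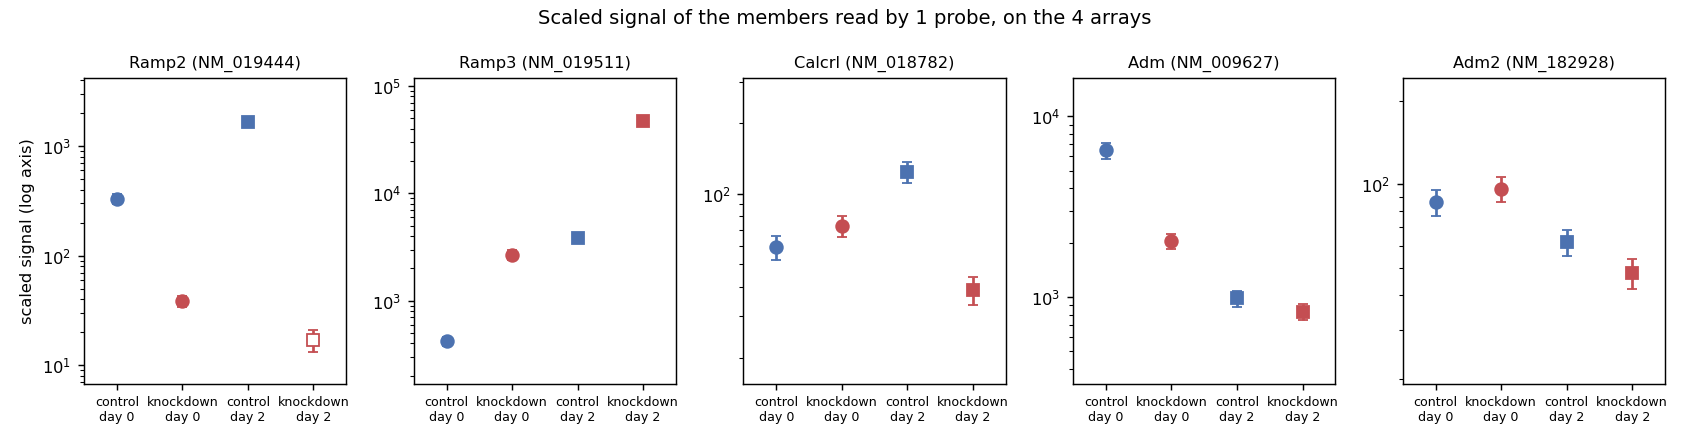
Scaled signal (log axis, 1000 is the 75th percentile of the array; axis ranges differ between panels) of the members read by 1 probe, with circles for day 0, squares for day 2, blue for control and red for knockdown cells; bars are the scanner's error of the spot and the open symbol was not well above background. Ramp2 runs from 1663 down to 16.9 between control and knockdown cells at day 2, where Ramp3 runs from 3861 up to 47028.

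Ramp1, the partner that makes the receptor for calcitonin gene-related peptide, gave 3 different readings. Probe A_55_P1982996, annotated to NM_001168392, was the brightest and stands for the gene: it read 435 ± 43.7 (control) and 764 ± 76.4 (knockdown) at day 0, and 781 ± 78.1 and 772 ± 77.3 at day 2. Only the control day 0 signal stood apart, and no comparison reached 2-fold. Probe A_51_P348665, annotated to NM_016894, read 41.3 ± 5.48 and 313 ± 31.3 at day 0, and 47.5 ± 5.45 and 1551 ± 155 at day 2. Here both knockdown signals lay above both control signals. The knockdown signal of that probe exceeded control by 7.58-fold at day 0 and 32.7-fold at day 2, and within knockdown cells day 2 exceeded day 0 by 4.96-fold. Over the other settings its log2 ratios of knockdown to control were 1.99 to 2.98 at day 0 and 3.95 to 5.32 at day 2.

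The other probe of NM_016894, A_52_P172014, read 3.70 ± 3.58 (not well above background) and 145 ± 14.6 at day 0, and 29.9 ± 3.98 and 75.3 ± 8.27 at day 2. It was again higher in knockdown cells at both days, but its log2 ratio of day 2 to day 0 in knockdown cells was -0.95, where that of the first probe of the same transcript was 2.31. The knockdown to control difference was at least 8.33-fold at day 0 and 2.52-fold at day 2, the latter 0.77 on the log2 scale with normexp. The day 0 bound was 2.85-fold with normexp, 4.06-fold with quantile normalization and 4.87-fold with cyclic loess. The day 0 ratios of both probes of this transcript use the control day 0 array, with its lower readings for dim probes. With the median of the 3 probes in place of the brightest, Ramp1 had knockdown log2 ratios of 2.92 at day 0 and 4.02 at day 2, against 0.81 and -0.02. The files hold no probe sequences, so which part of which transcript each probe reads was not analysed here.

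**Figure D2:**
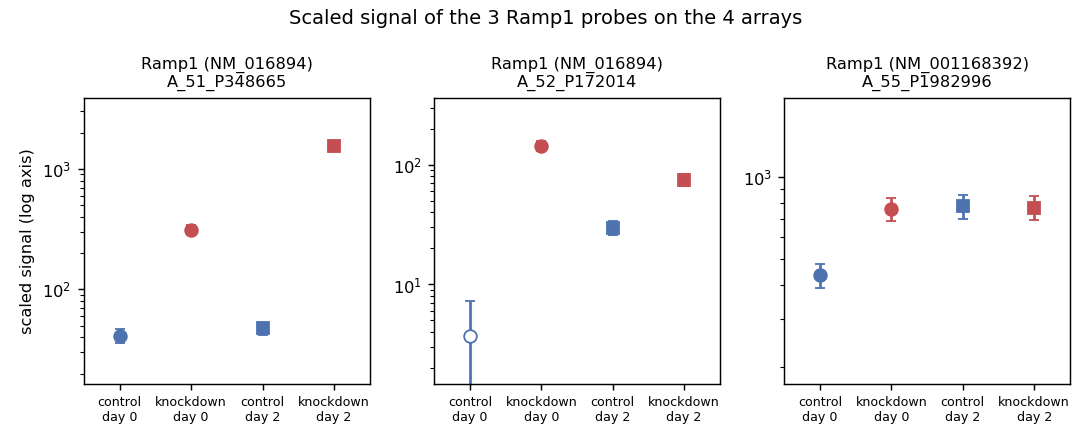
Scaled signal (log axis; ranges differ between panels) of the 3 Ramp1 probes on the 4 arrays, with circles for day 0, squares for day 2, blue for control and red for knockdown cells, scanner error as bars and an open symbol where the probe was not well above background. Both NM_016894 probes read higher in knockdown than in control cells on each day, and the NM_001168392 probe read 764 to 781 on the 3 arrays other than control day 0.

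Calcrl, the shared receptor, was dim. It read 59.0 ± 6.98 (control) and 72.5 ± 7.49 (knockdown) at day 0, and 124 ± 12.7 and 38.7 ± 5.19 at day 2. The control day 2 signal was the highest and the knockdown day 2 signal the lowest, and the day 0 signals overlapped within their errors. On day 2 the knockdown culture had 3.19-fold less Calcrl signal than the control culture (log2 ratio -1.68, or -0.81 with normexp, which is under 2-fold) and at day 0 it had 1.23-fold more. The day 0 ratio of 0.30 is smaller than the spot SD of 0.43 for probes this dim, and was -0.57 with quantile normalization and -0.92 with cyclic loess.

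From day 0 to day 2 Calcrl became 2.10-fold higher in control cells and 1.87-fold lower in knockdown cells. The comparison in control cells uses the array with lower readings for dim probes, and its log2 ratio of 1.07 was 0.67 with normexp, 0.26 with quantile normalization and -0.17 with cyclic loess. Calcrl and Ramp2 were both lower with the knockdown at day 2, while Ramp3 was higher.

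Among the peptides, Adm was bright, and highest in control cells before induction. It read 6478 ± 648 (control) and 2041 ± 204 (knockdown) at day 0, and 983 ± 98.3 and 828 ± 82.9 at day 2. Knockdown cells at day 0 came next, and the day 2 signals, the lowest, overlapped within their errors. The knockdown culture was 3.17-fold below control at day 0 (log2 ratio -1.67, the 379th lowest of 19270) and 1.19-fold below it at day 2. With time Adm became 6.59-fold lower in control cells (log2 ratio -2.72) and 2.46-fold lower in knockdown cells (log2 ratio -1.30). Its log2 ratio of knockdown to control differed between the days by 1.42, and by at least 1.34 in each other setting.

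Adm2, also called intermedin, binds the same receptors and was dim. It had scaled signals of 86.2 ± 9.43 and 96.3 ± 9.81 at day 0 (control, then knockdown), and of 62.0 ± 6.74 and 48.0 ± 5.96 at day 2. The day 0 signals overlapped within their errors and both day 2 signals lay below them. Neither knockdown comparison reached 2-fold: the log2 ratios were 0.16 at day 0 and -0.37 at day 2. The first was -0.61 with quantile normalization and -1.03 with cyclic loess, which is past 2-fold the other way. In knockdown cells Adm2 was 2.01-fold lower at day 2 than at day 0, just past the size used, and 4 other settings gave log2 ratios of -0.45 to -0.99, under it. In control cells its log2 ratio was -0.47, with -1.27 under quantile normalization and -1.69 under cyclic loess.

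Counted over the gene's standing probe, in knockdown against control cells at day 2, 1 member was higher (Ramp3), 2 were lower (Ramp2 and Calcrl) and 3 were within 2-fold, beside 6.99% of all compared genes past 2-fold (2.89% higher, 4.1% lower). The genes were chosen on that comparison. At day 0, Ramp3 was higher, Ramp2 and Adm were lower and 3 were within 2-fold, beside 22.6% of all genes (18.4% higher and 4.2% lower). The split over all genes moved to 5.6% higher and 6.78% lower with quantile normalization and to 5.14% and 8.96% with cyclic loess, and the 3 members kept their side in both. The median log2 ratio of all genes at day 0 was 0.12 here and 0 under either normalization.

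With time in control cells, 3 members were higher (Ramp2, Ramp3 and Calcrl) and Adm was lower, beside 28.1% of all genes (20% higher and 8.15% lower; 6.65% and 11.5% with quantile normalization, 6.15% and 14.1% with cyclic loess). With time in knockdown cells, Ramp3 was higher and Ramp2, Adm and Adm2 were lower, beside 14.1% of all genes (5.01% higher, 9.07% lower). These comparisons share arrays with the knockdown comparisons. How far the day 2 ratio of knockdown to control lay above or below the day 0 ratio was read where all 4 arrays were well above background, which leaves out Ramp2. Of the 5 remaining members, Adm was past 1 upward (1.42), Calcrl past 1 downward (-1.97), and 3 were within it. The background was 19.8% of all genes (2.9% upward and 16.9% downward; 5.75% and 6.92% with quantile normalization, 7.91% and 5.96% with cyclic loess). The Calcrl difference was -0.88 with normexp and -0.71 with cyclic loess. The medians over members were 0.23, -0.31, 0.96 and -0.95 in the 4 comparisons in the order day 0, day 2, control cells and knockdown cells, beside 0.12, 0.00, 0.19 and 0 over all genes.

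**Figure D3:**
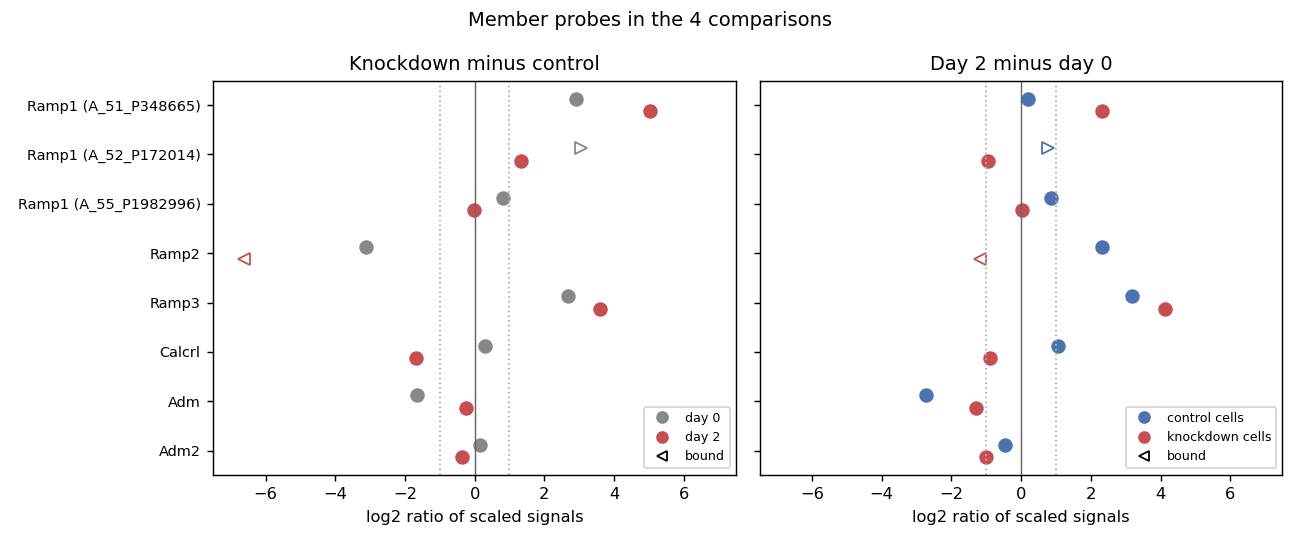
Log2 ratio of scaled signals for the 8 member probes, knockdown minus control (left, grey for day 0 and red for day 2) and day 2 minus day 0 (right, blue for control and red for knockdown cells); open triangles are bounds and dotted lines mark 2-fold. Ramp2 and Ramp3 lie on opposite sides in the left panel at both days, and Calcrl (1.07 against -0.90) and Ramp2 (2.33 against the bound -1.19) lie on opposite sides in the right panel.

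Other genes of the pathway were mostly within 2-fold. Among 10 genes for other ligands of the family and for peptide processing and breakdown, 9 could be compared at day 0, of which 3 were higher and none lower, and 8 at day 2, of which none was higher and 1 lower. Over all genes, 18.4% were higher and 4.2% lower at day 0, and 2.89% and 4.1% at day 2. The day 2 gene was Calca, which encodes calcitonin and calcitonin gene-related peptide: it read 9.50 (control, not well above background) and 16.0 (knockdown) at day 0, and 228 and 40.6 at day 2. The highest signal was that of the control day 2 culture, and the knockdown culture of that day was 5.63-fold below it. A second Calca probe, NM_007587, was well above background only in knockdown cells at day 0. It read 11.4 there and 11.6 in control cells at day 2, where it was not so marked. The genes higher at day 0 were Mme, which encodes the peptide-degrading enzyme neprilysin (2.79-fold), Pcsk2, a prohormone convertase (2.43-fold), and Iapp, which encodes amylin, another ligand of RAMP-bearing receptors (at least 2.59-fold). All 3 rest on signals under 100 on the control day 0 array. Calcb was well above background only in knockdown cells at day 0. Pam, the enzyme that amidates the ends of these peptides, read 2245 and 1514 at day 0 and 2535 and 1851 at day 2, within 2-fold in each comparison. With time, 5 of 8 genes of this list were higher in control cells and 2 of 9 in knockdown cells, with none lower. Over all genes, 20% were higher with time in control cells (6.65% with quantile normalization, 6.15% with cyclic loess) and 5.01% in knockdown cells. Of the 5 in control cells, 4 (Calca, Iapp, Pcsk2 and Mme) rest on signals under 100 on the control day 0 array.

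Calcr, the calcitonin receptor, which also pairs with RAMPs, was not well above background on any array. Gpr182, a receptor once linked to adrenomedullin, was well above background only in knockdown cells at day 0. Ackr3, a scavenger receptor that takes up adrenomedullin, read 4075 (control) and 6700 (knockdown) at day 0 and 5613 and 10857 at day 2. The knockdown signal was above control on both days, by 1.64-fold and 1.93-fold, which is under 2-fold. Of 4 genes in this list, 0 of 3 compared passed 2-fold at day 0 (22.6% of all genes) and 0 of 2 at day 2 (6.99%).

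Of 10 other receptors reported to pair with RAMPs, 8 were compared at day 0 and 7 at day 2. At day 0 the secretin receptor Sctr was 2.31-fold higher and the VIP receptor Vipr1 2.95-fold lower in knockdown cells. Over all genes, 18.4% were higher and 4.2% lower on that day. The second Vipr1 probe was 1.64-fold higher, and 1 of the 4 Sctr probes, a dim one, was 1.07-fold lower, so the probes of both genes disagree. None of these receptors passed 2-fold at day 2, beside 6.99% of all genes. With time, 1 of 7 was higher and 2 lower in control cells, and 0 of 8 higher and 2 lower in knockdown cells. Over all genes, 20% were higher and 8.15% lower with time in control cells (6.65% and 11.5% with quantile normalization). In knockdown cells these shares were 5.01% and 9.07%. Among 25 genes of Gs and cyclic AMP signalling, 1 of 23 was higher at day 0 (18.4% of all genes) and 1 of 21 at day 2 (2.89%), with none lower (4.2% and 4.1%). The former was the dim adenylyl cyclase Adcy5, at least 2.93-fold higher against a control signal of 6.48 that was not well above background. The latter was the adenylyl cyclase Adcy3, with scaled signals of 260 and 352 at day 0 and of 153 and 375 at day 2, 2.45-fold higher in knockdown cells at day 2. Gnas, which encodes the Gs alpha subunit, read 106289 and 91878 at day 0 and 70527 and 80972 at day 2 at its brightest probe, within 2-fold throughout. With time, 1 of 21 genes of this list was higher and 2 lower in control cells, beside 20% and 8.15% of all genes. In knockdown cells 3 of 23 were higher and 2 lower, beside 5.01% and 9.07%. The lower genes were the same in both: Adcy7, another adenylyl cyclase, was 17.0-fold lower in control and 40.0-fold lower in knockdown cells, and Rapgef3, the cyclic AMP-activated exchange factor Epac1, 3.00-fold and 2.76-fold lower. The day 2 Adcy7 signals were dim, 56.6 (control) and 39.2 (knockdown). Both lay below the 95th percentile of olfactory receptor genes on those arrays (294 and 299), so the sizes of the Adcy7 folds are uncertain. Adcy5, Adcy7 and Rapgef3 were named after their values were seen. The list medians of the knockdown log2 ratio were 0.10 and -0.25 for ligands and processing, 0.72 and 0.55 for receptors, 0.36 and 0.080 for RAMP-pairing receptors and 0 and 0.13 for Gs signalling, at day 0 and day 2.

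**Figure D4:**
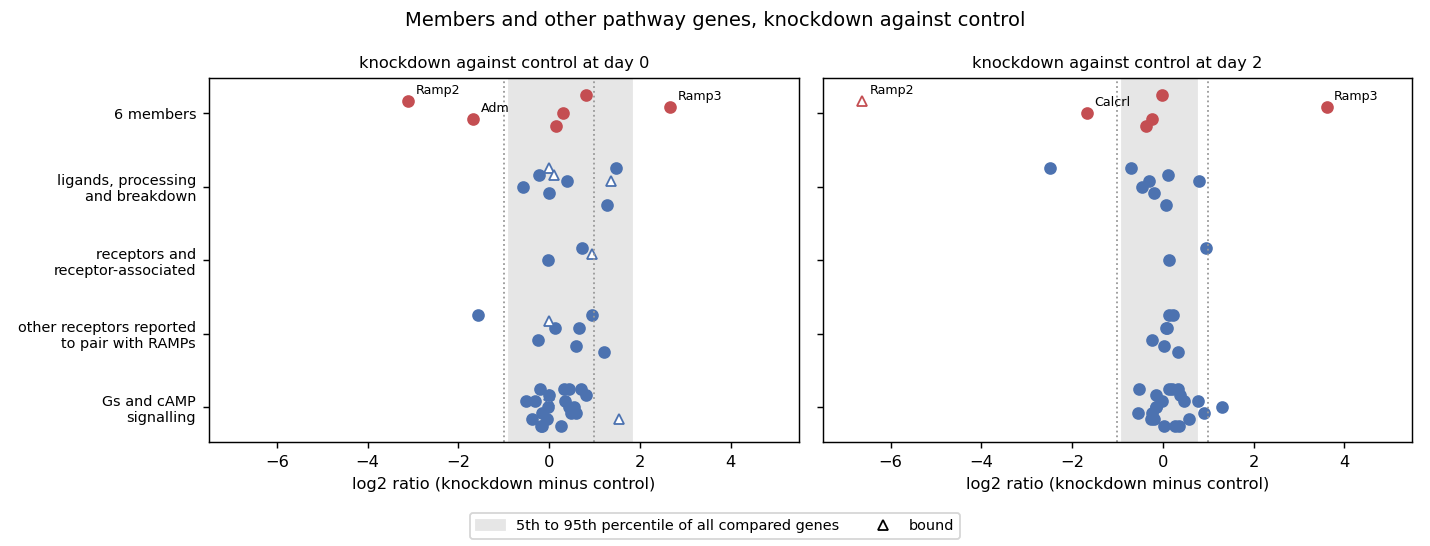
Log2 ratio of knockdown to control cells at day 0 (left) and day 2 (right) for the 6 members (red) and the genes of 4 pathway lists (blue); triangles are bounds, dotted lines mark 2-fold and the grey band spans the 5th to 95th percentile of all compared genes. At day 2 Calca at -2.49 and Adcy3 at 1.29 are the listed genes past 2-fold, beside Ramp2, Calcrl and Ramp3 among the members.

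The genes whose pattern over the 4 arrays was most like that of a member were found among 15465 genes well above background on all 4, by the Euclidean distance between log2 levels centred on each gene's mean. Nearest to Ramp3 were Mreg at a distance of 0.66, Fabp4 at 0.73 and Serpina3n at 0.94. Fabp4, the adipocyte fatty acid carrier, read 570 (control) and 3043 (knockdown) at day 0 and 6229 and 38220 at day 2, the same order as Ramp3. Nearest to Adm were Dhx58 at 0.21, Clec3b at 0.26 and Vat1 at 0.27. Nearest to Calcrl were Celf2 at 0.093, Aldh3a1 at 0.24 and Cfap100 at 0.30, distances below the spot SD of 0.35 to 0.47 for probes as dim as that of Calcrl. Celf2 read 14088 and 16289 at day 0 and 29745 and 9484 at day 2, so that the knockdown culture was 3.14-fold below control at day 2. These are likenesses over 4 arrays only. Ramp2 was not eligible.

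**Figure D5:**
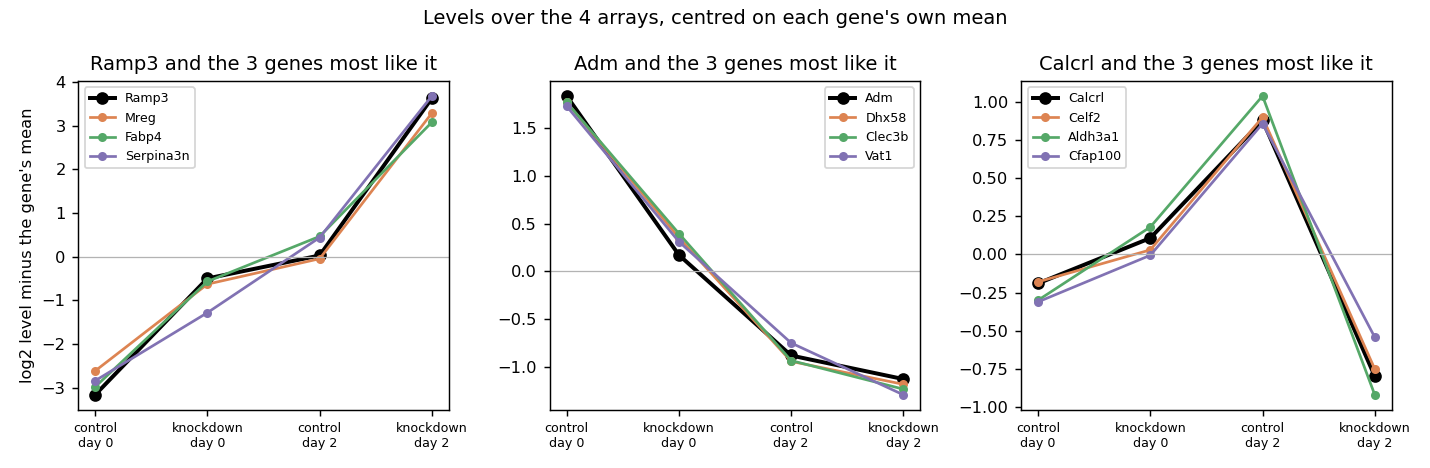
Log2 level minus the gene's own mean over the 4 arrays for Ramp3, Adm and Calcrl (black) and the 3 genes nearest to each (colours); lines join the values of 1 gene across arrays and show no course, and axis ranges differ. Fabp4 lies at a distance of 0.73 from Ramp3, taken over the 4 arrays together.

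Calcrl and Ramp2 are best known from endothelial cells, so markers of that and other cell types were read beside them. Of 10 endothelial markers, those well above background numbered 5 (control) and 9 (knockdown) at day 0 and 7 and 6 at day 2. Over all spots, 67.4% and 88.6% were well above background at day 0 and 84.2% and 78.7% at day 2, so these counts are not read as a difference in endothelial markers. Their summed scaled signals were 3132, 3410, 4216 and 4122, of which Kdr alone gave 2623 to 3493. Such a sum is read between arrays only. The part of 1 gene in it shows which probe leads the sum and does not measure its RNA against that of another gene. Erg was not well above background on any array, and Cdh5 read 15.3 to 48.7. Tek and Tie1 were well above background only in knockdown cells at day 0, the array that marked probes at the lowest signals. Tek read 19.3 there, against 16.2 in control cells at day 0, and Tie1 read 12.0. Single markers differed more than the sum. At day 0 Cldn5 was 2.91-fold and Cdh5 at least 2.06-fold higher in knockdown cells and Esam 2.09-fold lower. The signals of Cldn5, Cdh5 and Esam were all under 100 on the control day 0 array, which had lower readings for dim probes. At day 2 Emcn was at least 2.57-fold lower. Of the endothelial markers compared, 2 of 9 were higher and 1 lower at day 0, and none of 7 was higher and 1 lower at day 2. Over all genes, 18.4% were higher and 4.2% lower at day 0, and 2.89% and 4.1% at day 2. The part of these markers in the Ramp2 and Calcrl differences was not tested. Of 8 smooth muscle and pericyte markers, 7 or 8 were well above background on each array, and their summed signal was 126857 and 32300 at day 0 and 19127 and 2782 at day 2. Most of that sum was Acta2, which read 114521 and 29649 at day 0 and 16356 and 1051 at day 2. Its arrays ranked in the same order as those of Adm, whose day 2 signals overlapped within their errors. Des shared that order, and Tagln, Rgs5, Notch3, Cnn1, Cspg4 and Myh11 did not. The list as a whole was split at day 0. Of 8, 3 were higher in knockdown cells (Cnn1 3.20-fold, Cspg4 3.15-fold and Myh11 at least 2.16-fold) and 3 lower (Acta2, Tagln and Rgs5). Over all genes, 18.4% were higher and 4.2% lower. The 3 higher markers rest on signals under 100 on the control day 0 array, with its lower readings for dim probes. At day 2 none was higher and 2 were lower, beside 2.89% and 4.1% of all genes. The part of these markers in the Adm differences was not tested. Adipocyte markers summed to 59979 and 43997 at day 0 and 77459 and 87923 at day 2, with 5 of 6 well above background in control cells at day 0 and all 6 on the other arrays. At day 2, 4 of these 6 were lower in knockdown cells and 1, Fabp4, was higher, beside 4.1% and 2.89% of all genes. The part of the adipocyte markers in the Ramp2 and Ramp3 differences was not tested. All 6 macrophage and leukocyte markers on the array were well above background on each array, with sums of 17639 and 30615 at day 0 and 27316 and 37652 at day 2. Most of each sum was Itgam (14151 and 27186 at day 0, 23804 and 34978 at day 2). In the knockdown culture Lyz2 was lower, by 6.30-fold at day 0 and 4.44-fold at day 2. Ptprc was 2.40-fold higher there at day 0, against a dim control signal of 27.5.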

How the data were processed

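Per the labels and the file headers, total RNA of 4 cultures, labelled with Cy3, was read on 4 Agilent mouse arrays (design 028005), 1 per group. Per the file headers, Agilent Feature Extraction 10.7.3.1 subtracted a background from each spot and detrended the signal on 3 arrays, not on the knockdown day 0 array. The deposited processed signal is an intensity, linear and without normalisation across arrays. On the control day 0 array it is rounded to 3 significant digits. That array was on slide 1 and the other 3 on slide 2, so in the comparisons that use it the effects of slide and group cannot be told apart. Precision is limited by the number of arrays, and no test was run.

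Control spots and outlier spots were left out of the 59305 spots. The log2 of the intensity minus that of the array's 75th percentile is the level, averaged over repeat spots. Of 55681 probes, 27656 were named through their RefSeq accession in a GRCm38.p6 gene table, used for names and for promoter windows. The probe with the highest mean level stands for a gene. Where the scanner software marked a probe as well above background on only 1 of 2 arrays, its level on the other array was raised, if lower, to that array's lowest level so marked, which gives a bound ("at least N-fold"). The members and gene lists were chosen with earlier results of these data known. Named were all members, Calcr, Calca, Calcb, Iapp, Ackr3, Gpr182, Pam and Gnas, up to 4 genes per list past 2-fold and well above background on both arrays of a knockdown comparison, and the 3 nearest genes to a member. Other settings were normexp with an offset of 50 on the median signals, quantile and cyclic loess normalization (3 iterations), another percentile, no detrending, 2 filters on dim probes, the median of a gene's probes, outliers kept and a 1.5-fold size. Counts over the 11372 bright genes, above the 95th percentile of olfactory receptor genes, were added after the data were seen. The calling script was tested on simulated data in which all probes counted as well above background and the changed genes were not dim. That test does not cover calls on dim probes. Software was R 4.3.3 (limma 3.58.1) and Python 3.11.15 (pandas 2.3.3, numpy 2.4.6, matplotlib 3.10.9).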

Additional observations from a re-analysis of the deposited data

Results flagged for a closer look

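Ramp2 differed between the kinds of cell in its course from day 0 to day 2: its log2 ratio was 2.33 in control cells and a bound of -1.19 in knockdown cells. Calcrl did the same, with 1.07 in control cells and -0.90 in knockdown cells. Its knockdown log2 ratio also changed sign between the days, from 0.30 at day 0 to -1.68 at day 2. The Ramp1 probe A_52_P172014 had a bound of 0.78 in control cells and -0.95 in knockdown cells, day 2 against day 0. These signs depended on the processing. The Calcrl knockdown ratio at day 0 was -0.57 with quantile normalization and -0.92 with cyclic loess, so it kept its sign between the days there. In control cells the Calcrl ratio was -0.17 with cyclic loess, the same sign as in knockdown cells. With normexp the Ramp2 bound was 0. The Ramp1 bound of 0.78 was 0 with quantile normalization and with cyclic loess. Each group had 1 array, so these differences were not tested.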

How the results depend on the processing

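Of the single members and probes under the 10 other settings planned, 364 values kept their side of the 2-fold size, 18 moved past it, 11 moved under it, and 1 called value changed sign: Calcrl, day 2 against day 0 in control cells, was -0.17 with cyclic loess. For a member with 1 probe, well above background on both arrays, several settings could not change the ratio. These were the filters on dim probes, the median of probes, outliers kept and the 1.5-fold size. Many of the kept values, those of Adm among them, were therefore fixed in advance. Adm kept its side in every setting run, and Ramp3 did so in the 4 comparisons, not in the difference between days. Of counts, 118 stayed within 1.5 times and 37 did not. The genes past the size in either direction were, at day 0 (4349 here), 1912 with normexp, 2386 with quantile normalization, 2717 with cyclic loess, 6642 without a filter, 7356 at 1.5-fold and 989 among bright genes. At day 2 (1298) they were 815 with normexp, 2036 without a filter, 3198 at 1.5-fold and 754 among bright genes. With time in control cells (5251) they were 2972 with normexp, 3393 with quantile normalization, 8611 at 1.5-fold and 1740 among bright genes, and in knockdown cells (2702) 5628 at 1.5-fold and 1752 among bright genes. For the difference between days (3058) they were 1589 with normexp, 1960 with quantile normalization, 7119 without a filter, 5380 at 1.5-fold and 1054 among bright genes. Members higher numbered 2 at day 0 with the median of probes and at 1.5-fold, 2 at day 2 and 2 with time in knockdown cells with the median of probes, and 2 in the difference with normexp, the median of probes and 1.5-fold. Members lower numbered 1 at day 2 with normexp and with both arrays well above background, 2 with time in control cells with quantile normalization and cyclic loess, and 1 with time in knockdown cells with normexp. In the difference they numbered 0 with normexp and cyclic loess, and 2 without a filter and at 1.5-fold. The causes were not tested, except that fewer or more genes are compared under another filter and that a lower size calls more. Requiring both arrays well above background gives Ramp2 no value in the comparisons that use the knockdown day 2 array. No paired analysis was possible because each group has 1 array. Signal over background limits Calcrl, Adm2, 2 of the 3 Ramp1 probes and the knockdown readings of Ramp2 on both days.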
